A study of Drosophila melanogaster with 15 samples.

Results

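Antennal RNA from mutants of pheromone sensing was compared with antennal RNA from wild-type males, taking the 3 mutant genotypes together. The mutant side held 8 samples. Of these, 3 were *Or47b1* mutants (*Or47b1/Or47b1*, with 2 copies each of the *Or47b-GAL4* and *UAS-mCD8GFP* transgenes), 3 were *Or67dGAL4* mutants (*Or67dGAL4/Or67dGAL4*, with 2 copies of *UAS-mCD8GFP*), and 2 were *fruLexA/fru4-40* mutants, replicates 2 and 3, whose genotype is given as w+ and which lack the male forms of the Fruitless protein. The w1118 side held 6 samples, 3 from group-housed males (w1118 GH) and 3 from males kept alone from the pupal stage (w1118 SH). All mutant males were group-housed, all males were 7 days old, and each sample pooled 180 antennae. These 14 samples were taken from 15 in the series. A gene was selected when all 8 mutant samples lay above, or all 8 lay below, every one of the 6 w1118 samples on the log2 scale of CPM (counts scaled to library size). This held for 900 of the 10358 genes that passed a filter on low counts, and these are called non-overlapping genes here. The 3 genotypes are 3 stocks with different alleles, transgenes and backgrounds, and w1118 is a single stock in 2 housings. The mutations and the stock background therefore cannot be told apart in this comparison, and the 8 mutant samples are not replicates of one condition.

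Male flies detect the pheromones of other males and of females with olfactory neurons housed in trichoid sensilla, the long hairs of the third antennal segment. *Or67d* neurons in at1 sensilla respond to the male pheromone cis-vaccenyl acetate, and *Or47b* neurons in at4 sensilla respond to fatty-acid-derived odours of flies and promote courtship. Both classes express the male form of Fruitless, a transcription factor that directs male sexual behaviour. Detection at these hairs also uses the co-receptor *Orco*, the membrane protein *Snmp1*, secreted odorant-binding proteins such as *lush*, and DEG/ENaC channels of the pickpocket (ppk) family. The white gene (*w*) encodes an ABC transporter that carries eye pigment precursors. Flies of the w1118 stock lack its function, and it also serves as the visible marker of many fly transgenes.

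The depth of the samples, as total gene counts, ran from 8570425 to 14908299, with a median of 10691513. A floor of 3 counts, the smallest signal credited to a sample, corresponded to between 0.201 and 0.35 CPM. Pearson's r of log2 CPM, taken across genes, ran from 0.947 to 0.96 between samples of different mutant genotypes and from 0.931 to 0.963 between a mutant and a w1118 sample. Markers of the third antennal segment summed to between 20330 and 25660 CPM in mutants and between 20160 and 25610 CPM in w1118. Similar sums do not mean similar levels of each marker. Of these 13 markers the edgeR test described below called 2 higher in mutants and 6 lower. It called 13.1% of all tested genes higher and 13.9% lower. Markers of other tissues summed to far less, and not all were higher in mutants. Second-segment chordotonal markers had 431.9 to 1034 CPM in mutants (median 561.2) and 637.2 to 828.2 CPM in w1118 (median 658.5). Muscle markers had 82.02 to 354.1 CPM in mutants (median 143.4) and 9.896 to 536 CPM in w1118 (median 67.09). Testis markers reached 5.434 CPM in mutants and 39.96 CPM in w1118, and the ranges of glia and hemocyte markers overlapped. The 9 fat body markers summed to between 89.7 and 385 CPM in mutants (median 147.9) and between 68.1 and 159 CPM in w1118 (median 100.3). The 8 gut markers summed to between 5.96 and 203.9 CPM in mutants (median 30.92) and between 3.03 and 34.2 CPM in w1118 (median 5.547). The 12 photoreceptor markers summed to between 298 and 548 CPM in mutants (median 398.6) and between 261 and 333 CPM in w1118 (median 316.1). Of these 29 markers, Fbp1 and ninaA had at most 3 counts in every sample, and *Lsp2*, a larval serum protein of fat body, was the only non-overlapping one. The part of such tissue in the results was not tested. A lower level of a gene can mean fewer cells of a type or less RNA per cell, which cannot be told apart in whole antennae.

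The targeted genes were read first. *Or47b* had between 0.555 and 0.859 RPKM (TMM-scaled CPM per kilobase of exon) in *Or47b1*, between 106 and 133 in *Or67dGAL4*, and 83.9 and 75.5 in *fruLexA/fru4-40*, against 121 to 152 RPKM in w1118. *Or67d* had between 0.0802 and 0.927 RPKM in *Or67dGAL4*, between 58.9 and 80.9 in *Or47b1*, and 52.3 and 37.3 in *fruLexA/fru4-40*, against 69.9 to 90.1 RPKM in w1118. Each receptor was thus close to absent in its own mutant, and neither was non-overlapping, because another mutant genotype reached into the w1118 range. Counts over the whole *fru* gene ran from 3.73 to 4.97 RPKM in mutants and from 3.96 to 5.4 RPKM in w1118. These gene-level counts do not resolve the male transcripts, so they check nothing about the *fruLexA/fru4-40* label.

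Of the 900 non-overlapping genes (8.69% of those tested), 408 were higher in every mutant sample (3.94%) and 492 were lower (4.75%). The median absolute log2 fold change was 0.80 for the higher genes and 0.51 for the lower genes, against 0.19 over all tested genes, where the median signed value was 0.01. Across the 900 genes the change was at least 2-fold for 304, counting the 30 genes at or under the floor on one side at their lower bound. The selection rests on order alone, so many gaps were narrow. The median gap between the nearest mutant and w1118 samples was 0.17 on the log2 scale for the higher genes and 0.11 for the lower genes, and it was at least 1 for 82 genes. Just inside the rule, *Neos* reached 10.3 RPKM in its highest mutant sample and 10.3 RPKM in its lowest w1118 sample, and *CG17359* reached 5.861 RPKM in mutants and 5.862 RPKM in w1118. Just outside it, *Stam* had 34.99 RPKM in its highest mutant sample and 34.98 RPKM in its lowest w1118 sample. By annotation, 830 of the non-overlapping genes encode proteins, 42 are non-coding RNAs and 13 are pseudogenes.

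The same samples were tested with edgeR's quasi-likelihood test, contrasting the mean of the 3 mutant groups with the mean of the 2 w1118 groups at a Benjamini-Hochberg adjusted p of 0.01. The test called 2799 genes (27.0% of those tested), 1356 higher in mutants (13.1%) and 1443 lower (13.9%). Among the non-overlapping genes 880 were called, in the direction that their selection had already fixed. A stricter reading asked for a call in one direction in all 6 contrasts of one mutant with one w1118 group, and 265 genes met it (2.56%), 135 higher in mutants (1.30%) and 130 lower (1.26%). The 6 contrasts share their control samples. Other fits let the spread between the 5 groups, which on the w1118 side are 2 housings of 1 stock, enter the error. With only the 2 sides in the fit, edgeR called 1071 genes. With the group as a random block, limma with voom called 191 genes, and all 191 were among the non-overlapping genes. This fit used the same 14 samples and 2 sides as the selection, so its calls describe the selected genes and are no separate support. It also took 1 correlation within groups (0.51) for all genes. Genes marked below as called in the random-block fit belong to these 191. Further genes named below that belong to them without being marked are *CG9010*, *CG32437*, *lncRNA:CR44377*, *tRNA:Gly-GCC-1-8*, *CG14563*, *CG12971*, *CG18577*, *CG32301*, *CG30197*, *Or19b*, *Cyp6a19*, *CG7126*, *Polr1E*, qin, *CG31224*, *Cyp12d1-d*, *Cyp12d1-p*, *sordd2*, *CR43214* and *CR43215*.

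The *w* gene was expressed in every mutant sample and close to 0 in w1118. It had 54.3, 48.8 and 43.9 RPKM in *Or47b1*, 235, 211 and 179 in *Or67dGAL4*, and 5.59 and 7.4 in *fruLexA/fru4-40*. In w1118 it had 1 count in w1118 GH replicate 2 and 0 in the other 5 samples. It was at least 677-fold higher in mutants when w1118 is set at 3 counts per sample. The 3 genotypes stood at 3 separate levels (edgeR adjusted p = 1.9e-08 for differences among the mutants), and the difference from w1118 was not called in the random-block fit (limma adjusted p = 0.51). Reads from a *w* marker within a transgene would be counted as *w* here, and the markers in these stocks were not examined. Of the other 15 tested eye pigment genes, 1 was non-overlapping: Pu, the GTP cyclohydrolase at the head of pteridine synthesis, had between 36.8 and 47.1 RPKM in mutants and between 27.8 and 32.8 RPKM in w1118 (log2 fold change 0.48, SE 0.05, edgeR adjusted p = 1.8e-05).

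**Figure D1:**
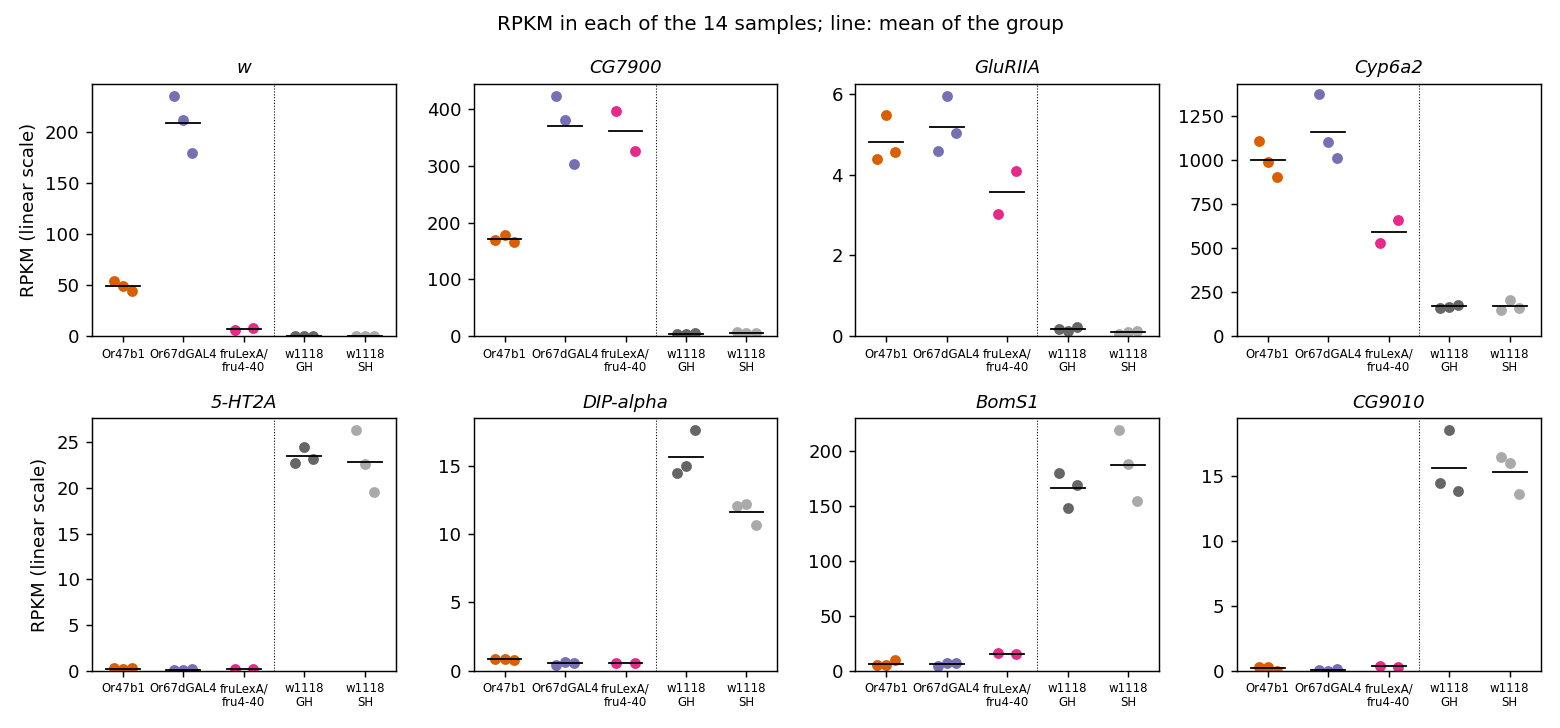
RPKM of 8 genes in each of the 14 samples (points, 1 per sample; lines, group means; linear axes starting at 0), with mutant groups left of the dotted line and w1118 groups right of it. The upper 4 genes are higher in all 8 mutant samples and the lower 4 are lower in all of them; *w* differs between mutant genotypes, from 5.59 RPKM in a *fruLexA/fru4-40* sample to 235 RPKM in an *Or67dGAL4* sample, while *5-HT2A* stays at or below 0.276 RPKM in every mutant sample.

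Several receptor and recognition genes of neurons differed by more than 10-fold. *5-HT2A* (FBgn0087012), a G-protein-coupled serotonin receptor on chromosome 3R (dm6, 4612870 to 4633304), had 0.246, 0.15 and 0.276 RPKM in *Or47b1*, 0.0604, 0.122 and 0.131 in *Or67dGAL4* and 0.175 and 0.213 in *fruLexA/fru4-40*, against 22.7, 24.5 and 23.2 in w1118 GH and 26.3, 22.7 and 19.5 in w1118 SH. All 8 mutant samples were at or below 0.276 RPKM, with the 3 *Or67dGAL4* samples lowest, and the fitted log2 fold change was -7.11 (SE 0.12, edgeR adjusted p = 2.9e-13), or 138-fold lower in mutants. *DIP-alpha*, an immunoglobulin-domain surface protein that binds Dpr partners on other neurons, had a median of 0.594 RPKM in mutants (0.449 to 0.839), against 13.4 RPKM in w1118 (10.7 to 17.6), a log2 fold change of -4.42 (SE 0.07, edgeR adjusted p = 2.9e-13). Its exons overlap *CG2875* and ppk8, whose reads cannot be told apart without strand. *GluRIIA*, a subunit of the ionotropic glutamate receptor known from the neuromuscular junction, went the other way, with a median of 4.59 RPKM in mutants (3.02 to 5.97), against 0.119 RPKM in w1118 (0.0545 to 0.219). Its log2 fold change was 5.14 (SE 0.18, edgeR adjusted p = 3.1e-10), and it overlaps CG14017. All 3 were also called in the random-block fit. Of 48 tested neurotransmitter receptors and transporters, *5-HT2A*, *GluRIIA* and *Octbeta2R* were non-overlapping, a share of 6.25% beside the 8.69% of all tested genes. *Octbeta2R*, an octopamine receptor, had 1.53 to 4.27 RPKM in mutants and 0.95 to 1.36 RPKM in w1118 (log2 fold change 1.06, SE 0.10).

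*CG7900*, a predicted amidase, combined a high level with a large change. It had 169, 178 and 167 RPKM in *Or47b1*, 425, 382 and 304 in *Or67dGAL4* and 397 and 327 in *fruLexA/fru4-40*, against 3.31, 3.93 and 4.75 in w1118 GH and 6.04, 4.4 and 5.86 in w1118 SH. The lowest mutant sample stood far above the highest w1118 sample, and the fitted level was 61.1-fold higher in mutants (log2 fold change 5.93, SE 0.12, edgeR adjusted p = 1.8e-12, called in the random-block fit at a limma adjusted p of 9.4e-08). The 5 most abundant non-overlapping genes that rose were *Obp83a*, *lush*, *Obp56d*, *CG30197* and *Cyp6a2*, and the 5 most abundant that fell were *Snmp1*, *Cyp6a20*, *Jhbp11* and the V-ATPase subunit genes *Vha68-2* and *Vha55*. Changes of the V-ATPase genes were slight. *Vha68-2* had 488 to 569 RPKM in mutants and 585 to 610 RPKM in w1118 (log2 fold change -0.19, SE 0.05), and neither subunit gene was called in the random-block fit.

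A further set of genes was at or under the floor on one side only. Counts exceeded 3 in every mutant sample and were at most 3 in every w1118 sample for 12 genes: *w*, *CG43149*, *CR44383*, *CR41440*, *CR43671*, *lncRNA:CR44164*, *asRNA:CR44724*, *l(2)k05911*, *ImpL1*, *CG4842*, *Cpr64Aa* and *Grl43a*. For *CR41440*, *Cpr64Aa* and *Grl43a* the lowest mutant sample had 4 counts and the highest w1118 sample 3, so these lie at the edge of the pattern. *CG43149* had between 36 and 460 counts in mutants and 0 in all w1118 samples, at least 58.6-fold higher in mutants when w1118 is set at 3 counts per sample. It varied strongly within each genotype and was not called in the random-block fit. The non-coding gene *CR44383* was steadier, with 7.08 to 17.3 RPKM in mutants and at most 0.242 RPKM in w1118, and was called in the random-block fit (limma adjusted p = 0.0042). The reverse pattern held for 10 genes: *CG32440*, *CG12971*, *CG14563*, *CG18577*, *CG32301*, *Osi19*, *c-cup*, *tRNA:Gly-GCC-1-8*, *lncRNA:CR44377* and *lncRNA:CR44914*. For *Osi19* and *lncRNA:CR44914* the highest mutant sample had 2 counts and the lowest w1118 sample 4. Of the 10 genes, *lncRNA:CR44377*, *tRNA:Gly-GCC-1-8* and *CG32301* had 0 counts in all 8 mutant samples. They are at least 11.1-fold, 4.59-fold and 3.22-fold lower in mutants when the mutants are set at 3 counts per sample. The tRNA gene belongs to a family of near-identical copies, so its assignment is uncertain. *CG32437* came close to this pattern, with 0 counts in 6 mutant samples and at most 0.22 RPKM, against 8.61 to 12.01 RPKM in w1118. The non-coding gene *lncRNA:CR44111* was similar, with a median of 0.0681 RPKM in mutants (0 to 1.13), against 13.9 RPKM in w1118 (12.4 to 18.03), and *CR44003*, which overlaps *CG44002*, had 2.98 to 4.59 RPKM in mutants and at most 0.259 RPKM in w1118. Both were called in the random-block fit.

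Gene lists for the tissue were read by counts, beside the 8.69% of all tested genes that did not overlap. The share was above that figure in pickpocket channels (46.7%) and in a list for trichoid pheromone detection that also holds receptors of at3 and intermediate sensilla (34.8%). The share was also above it in antimicrobial peptides and Turandot genes (26.1%), odorant receptors (25.6%), ionotropic receptors (22.2%) and glutathione transferases (20.6%). It was 18.8% for heat shock and metallothionein genes, 16.1% for odorant-binding proteins, 15.6% for cytochrome P450 genes, 13.6% for UDP-glycosyltransferases, 13.3% for gustatory receptors, 12.5% for eye pigment genes, 12.0% for DIP, Dpr, Beat and Side genes, 10.8% for other ion channels and 6.25% for neurotransmitter receptors and transporters. No member was non-overlapping among 12 juvenile hormone genes, 9 circadian clock genes and 7 sex determination genes. In those 3 lists the edgeR test called 3, 1 and 1 higher in mutants and 3, 1 and 1 lower, where it called 13.1% of all tested genes higher and 13.9% lower. The juvenile hormone list leaves out *Jhbp11* and *Jhbp7*, genes named for juvenile hormone binding proteins. Both were non-overlapping and lower, with a log2 fold change of -1.12 for *Jhbp11*.

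**Figure D2:**
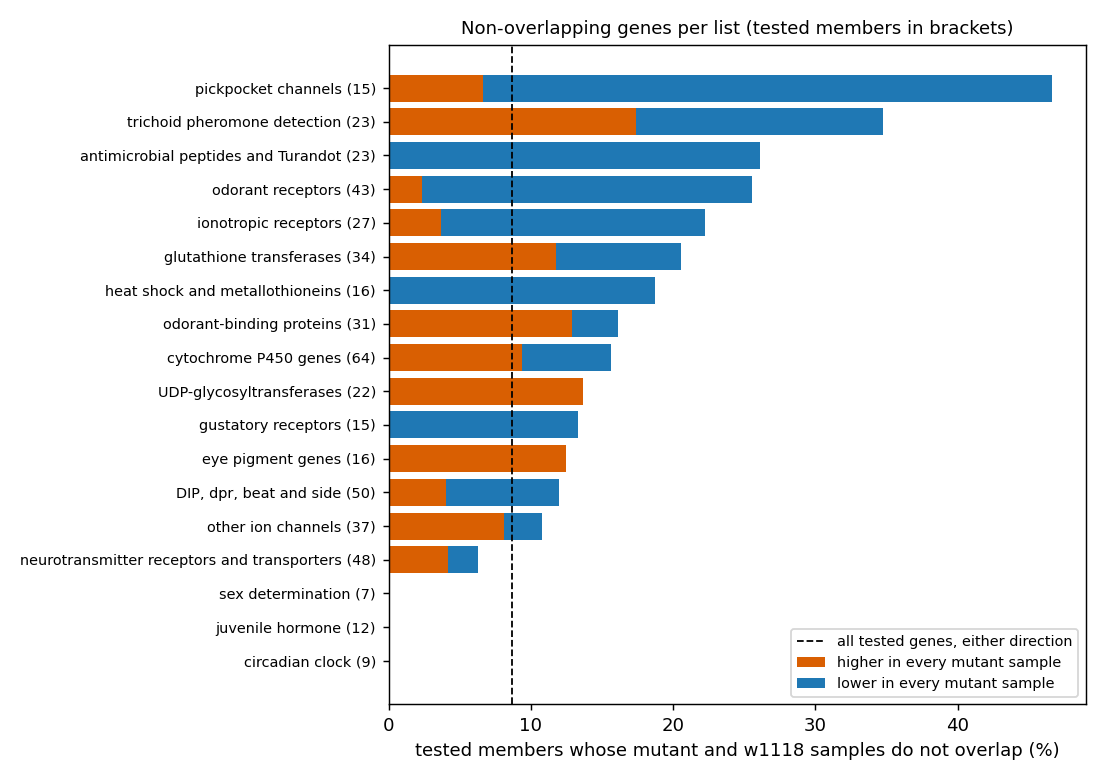
Percent of the tested members of each list whose mutant and w1118 samples do not overlap (horizontal axis; bars stack members higher in every mutant sample and members lower in every mutant sample; number of tested members in brackets). The dashed line marks the 8.69% of all tested genes; pickpocket channels stand at 46.7%, and members of the odorant receptor list are mostly lower in mutants.

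The list for pheromone detection in trichoid sensilla had 23 tested genes and also holds receptors of at3 and intermediate sensilla. Of these genes 4 were non-overlapping and higher in mutants and 4 were non-overlapping and lower. The higher genes included *lush*, the binding protein needed for the response to cis-vaccenyl acetate. It had 1306, 1297 and 1311 RPKM in the *Or47b1* samples, 1758, 1406 and 1462 in *Or67dGAL4* and 1505 and 1452 in *fruLexA/fru4-40*, against 849 to 965 RPKM in w1118 (log2 fold change 0.66, SE 0.05, edgeR adjusted p = 6.4e-07, called in the random-block fit). *Obp83a*, another abundant trichoid binding protein, had 5137 to 6362 RPKM in mutants and 3679 to 4699 RPKM in w1118 (log2 fold change 0.42). The remaining higher genes were *Or83c*, the farnesol receptor of intermediate sensilla, with a log2 fold change of 0.67, and *ppk25*. The lower genes were *Snmp1* and the at3 receptors *Or19a*, *Or19b* and *Or43a*. *Snmp1*, the CD36-related protein that cis-vaccenyl acetate detection needs, had 769 to 1082 RPKM in mutants and 1090 to 1179 RPKM in w1118 (log2 fold change -0.30, SE 0.05), a gap close to 0. *Or19a* and *Or19b* are near-identical copies, so their counts may have been split. *Or88a* and *Or65a*, which share at4 sensilla with *Or47b*, overlapped, with log2 fold changes of -0.02 (SE 0.14) and -0.15 (SE 0.06) that were not called. Of the related receptors on the list, *Or65b* also overlapped but was called lower (log2 fold change -0.58, SE 0.07, edgeR adjusted p = 4.9e-05). *Or65c* overlapped and was not called (log2 fold change 0.13, SE 0.10).

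Of 43 tested odorant receptors, 10 were non-overlapping and lower and 1, *Or83c*, was higher. The edgeR test called 20 lower and 7 higher, where it called 13.9% of all tested genes lower and 13.1% higher. The 20 include the targeted *Or47b* and *Or67d*, the co-receptor *Orco* and the trichoid receptors *Or19a*, *Or19b* and *Or43a*. *Or7a*, a receptor of ab4 basiconic sensilla, had 19.99, 22.4 and 22.1 RPKM in *Or47b1*, 22.3, 16.6 and 19.8 in *Or67dGAL4* and 20.8 and 19.7 in *fruLexA/fru4-40*, against 43.5, 39.8 and 41.5 in w1118 GH and 45.2, 47.0 and 45.8 in w1118 SH. The values of the 3 genotypes overlapped each other and lay under all w1118 samples (log2 fold change -1.10, SE 0.06, edgeR adjusted p = 1.8e-08, limma adjusted p = 2.5e-05 in the random-block fit). *Or42b* and *Or92a*, the receptors of neighbouring ab1 neurons, had log2 fold changes of -0.78 (SE 0.07) and -0.75 (SE 0.06), and both were called in the random-block fit. *Or42a*, *Or71a* and *Or1a*, receptors known mainly from other olfactory organs, were weakly expressed, at no more than 1.95 RPKM in any mutant sample and 3.95 RPKM in any w1118 sample. *Or19a*, *Or19b*, *Or43a* and *Or49b*, a receptor of ab6 sensilla, made up the remaining lower members.

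Of 27 tested ionotropic receptors, 5 were non-overlapping and lower and 1, *Ir76a*, was higher. The lower genes included the co-receptors *Ir25a* and *Ir8a*, while another co-receptor, *Ir76b*, was called lower (log2 fold change -0.38, SE 0.06) but overlapped. *Ir25a* had 76.0 to 116 RPKM in mutants and 136 to 151 RPKM in w1118 (log2 fold change -0.60, SE 0.04, called in the random-block fit), and *Ir8a* had 39.0 to 65.7 RPKM in mutants and 73.8 to 89.3 RPKM in w1118 (log2 fold change -0.67, SE 0.05). The other lower members were *Ir56a*, *Ir92a* and *Ir64a*, with log2 fold changes of -1.74, -0.38 and -0.27. Of 15 tested gustatory receptors, *Gr63a*, a subunit of the carbon dioxide receptor, and *Gr66a*, a bitter receptor of taste neurons, were non-overlapping and lower, with log2 fold changes of -0.50 and -0.91.

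Pickpocket channel genes showed the highest share of any list. Of 15 tested members, 6 were non-overlapping and lower (ppk5, *ppk7*, *ppk13*, *ppk14*, *ppk15* and *ppk19*) and *ppk25* was higher. The lower genes stayed at or below 8.19 RPKM in all samples except for *ppk5*, which had 22.4 to 29.0 RPKM in mutants and 29.9 to 36.1 RPKM in w1118. *ppk19*, a subunit linked to salt taste in larvae, had 0 RPKM in all 3 *Or47b1* samples, 2.48, 1.97 and 2.15 in *Or67dGAL4* and 4.06 and 4.82 in *fruLexA/fru4-40*, against 6.29 to 8.19 RPKM in w1118. *ppk25*, which acts in courtship and in *Or47b* neurons, had 8.79, 9.6 and 7.49 RPKM in *Or47b1*, 55.8, 52.9 and 50.4 in *Or67dGAL4* and 10.8 and 8.89 in *fruLexA/fru4-40*, against 3.45 to 5.33 RPKM in w1118 (log2 fold change 1.99, SE 0.10, edgeR adjusted p = 8.7e-09). Only *Or67dGAL4* reached the high level. None of the 7 was called in the random-block fit, with limma adjusted p from 0.010 to 0.15. *ppk19* overlaps *Bub3*.

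**Figure D3:**
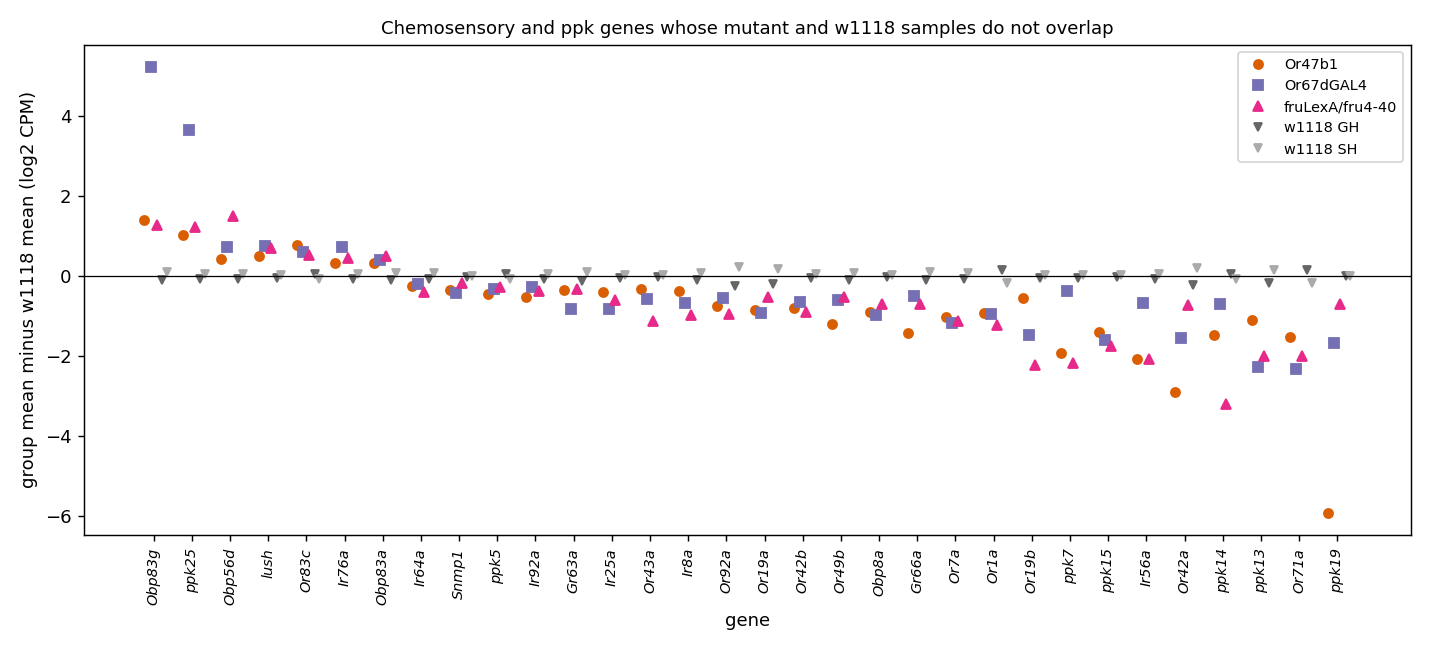
Group means of log2 CPM minus the mean of both w1118 groups (vertical axis) for 32 chemosensory and ppk genes that do not overlap, in order of their fitted change (horizontal axis), with 1 symbol per group. Points of the 3 mutant genotypes lie on one side of 0 for each gene; they lie close together for *Or7a* and apart for *ppk25*, *Obp83g* and *ppk19*.

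Odorant-binding proteins, small secreted proteins of the sensillum lymph, were next. Of 31 tested members, 13 were called higher and 2 lower, where 13.1% of all tested genes were called higher and 13.9% lower, and 4 were non-overlapping and higher against 1 that was lower. Beside *lush* and *Obp83a* the higher ones were *Obp56d*, with 817 to 1830 RPKM in mutants and 538 to 708 RPKM in w1118, and *Obp83g*. *Obp83g* was near the floor in *Or47b1* and *fruLexA/fru4-40*, at 0.507 to 0.935 RPKM, reached 20.3, 13.6 and 11.8 RPKM in *Or67dGAL4*, and was at most 0.179 RPKM in w1118. *Obp8a* was the lower one, with 6.32 to 8.39 RPKM in mutants and 11.7 to 15.7 RPKM in w1118 (log2 fold change -0.87, SE 0.10).

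Enzymes that modify foreign compounds and odours moved in both directions. Of 64 tested cytochrome P450 genes, 6 were non-overlapping and higher and 4 were lower. *Cyp6a2*, a P450 known from insecticide resistance, had a median of 999 RPKM in mutants (527 to 1374), against 163 RPKM in w1118 (148 to 206), with a log2 fold change of 2.38 (SE 0.10, edgeR adjusted p = 2.9e-09, called in the random-block fit). *Cyp6d5*, *Cyp6a23* and *Cyp4d20* were also higher and called in the random-block fit, with log2 fold changes of 1.54, 1.31 and 0.98. *Cyp6a20*, which is linked to male aggression, had 655, 674 and 572 RPKM in *Or47b1*, 250, 233 and 207 in *Or67dGAL4* and 339 and 322 in *fruLexA/fru4-40*, against 756 to 838 RPKM in w1118. The decrease was thus smallest in *Or47b1*. *Cyp6a19* was lower (log2 fold change -3.29, SE 0.29) and overlaps *Cyp6a9*. Of 34 tested glutathione transferases, 4 were non-overlapping and higher and 3 were lower. *GstE10*, at most 1.77 RPKM in mutants, and *GstE1*, with 36.5 to 151 RPKM in mutants and 215 to 444 RPKM in w1118, overlap each other and changed in opposite directions. The lowest mutant and highest w1118 samples of *GstE10* had 1 count each (0.0834 and 0.0803 RPKM), so its place among the higher genes rests on sample depth. It was not called in the random-block fit (limma adjusted p = 0.20). *GstD8* had 167 to 224 RPKM in mutants and 286 to 347 RPKM in w1118 (log2 fold change -0.74, SE 0.05), *GstT3* had 13.03 to 19.03 RPKM in mutants and 6.8 to 7.64 RPKM in w1118 (log2 fold change 1.05, SE 0.08), and both were called in the random-block fit. *GstE5* was lower (log2 fold change -0.81) and *GstZ1* and *GstD5* were higher (0.87 and 1.38), without a call in the random-block fit. All 3 non-overlapping UDP-glycosyltransferases were higher, namely *Ugt37E1*, *Ugt35A1* and *Ugt302C1*, with log2 fold changes of 2.53, 1.06 and 0.46. Paralogs in these families share sequence, and their counts may have been split.

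Of the 9 listed Bomanins, immune peptide genes that the Toll pathway induces, 6 were non-overlapping and lower in mutants. The other 3, *BomBc2*, *BomS6* and *BomBc3*, overlapped and were not called, with log2 fold changes of 0.54 (SE 0.33), 1.06 (SE 0.33) and -0.21 (SE 0.08). *BomS1* had 4.91, 4.77 and 9.53 RPKM in *Or47b1*, 3.92, 6.79 and 6.85 in *Or67dGAL4* and 15.7 and 15.2 in *fruLexA/fru4-40*, against 180, 148 and 169 in w1118 GH and 219, 188 and 154 in w1118 SH (log2 fold change -4.40, SE 0.13, edgeR adjusted p = 1.0e-10). *BomBc1* had a log2 fold change of -5.49 (SE 0.16), and *BomS4*, *BomS5*, *BomS3* and *BomS2* had -3.14, -3.25, -2.07 and -1.84. *BomBc1*, *BomS1*, *BomS3* and *BomS4* were called in the random-block fit. Markers of fat body, a tissue known to secrete these peptides, summed to between 89.7 and 385 CPM in mutants and between 68.1 and 159 CPM in w1118, and their part in the result was not tested. Of the other 17 tested members of the list of antimicrobial peptides and Turandot genes none was non-overlapping. *Dro*, *TotC* and *TotX* were called higher with log2 fold changes of 2.69, 3.72 and 3.44, *Drsl5* was called lower at -0.52, and the remaining 13, the 3 Bomanins above included, were not called. The Bomanin genes resemble each other in sequence, and their counts may have been split. Of 16 tested heat shock and metallothionein genes, 11 were called lower and none higher, where 13.9% of all tested genes were called lower. The 3 that did not overlap were *Hsp23*, *Hsp67Bc* and *MtnB*, and the w1118 values of *Hsp23* ranged widely. This small heat shock protein gene had 1.11 to 5.35 RPKM in mutants and 5.67 to 39.1 RPKM in w1118.

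Among 37 further ion channel genes, *Tmc*, *cac* and *eag* were non-overlapping and higher and *pyx* was lower. *Tmc*, a mechanosensory channel gene, had 0.567 to 0.824 RPKM in mutants and 0.117 to 0.257 RPKM in w1118 (log2 fold change 1.83, SE 0.16) and was called in the random-block fit. Of 50 tested genes for DIP, Dpr, Beat and Side recognition proteins, *DIP-beta* and *beat-IIIc* were non-overlapping and higher, and *DIP-alpha*, *side-II*, *beat-IV* and *dpr4* were lower. *side-II* and *beat-IV* had log2 fold changes of -0.87 and -0.68 (SE 0.07 each) and were called in the random-block fit. These shares of 10.8% and 12.0% were near that of all tested genes.

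The position of the non-overlapping genes was also examined. Their share of the tested genes ran from 7.28% on 2L to 10.6% on 2R, with 10.2% on 3L, 7.81% on 3R and 7.50% on X. On the small chromosome 4, 7 of 93 tested genes were non-overlapping, and all 7 were higher in mutants. Runs of at least 3 consecutive tested genes that were non-overlapping in 1 direction were found 9 times and held 28 genes. In a run on 2R (dm6, 16958943 to 16971695), *CG9010* had 0 to 0.377 RPKM in mutants and 13.5 to 18.5 RPKM in w1118 (log2 fold change -6.54, SE 0.24), and its neighbours *tRNA:Gly-GCC-1-8* and *lncRNA:CR44377* had no counts in any mutant sample. The tested genes on either side of the run, *CG6665* and *Cbp53E*, had log2 fold changes of -0.40 (SE 0.05) and 0.11 (SE 0.10). A run on 3L (21355100 to 21361229) held *CG12971*, *CG32437* and *CG32440*. *CG32437* had a log2 fold change of -8.47 (SE 0.38), and *CG12971* and *CG32440* were at least 11.01-fold and 7.503-fold lower in mutants when these are set at 3 counts per sample. The tested genes on either side, *ebd2* and *rgn*, had log2 fold changes of 0.05 (SE 0.08) and 0.17 (SE 0.06). Of these neighbours *CG6665* was called (edgeR adjusted p = 3.1e-05), and *CG32436*, the tested gene beyond *ebd2*, was called lower with a log2 fold change of -1.90 (SE 0.38).

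*BomBc1*, *BomS1* and *BomS4* formed a run on 2R. Behind them *BomBc2*, whose exons overlap those of *BomS4*, had a log2 fold change of 0.54 (SE 0.33) and was not called, and *BomS2* and *BomS3* followed as lower genes. On X, *CR44383* led a run with *sordd2*, at 143 to 185 RPKM in mutants and 55.9 to 78.5 RPKM in w1118, and *CG15602*. Their log2 fold changes were 1.33 and 0.48, and *CR44383* was at least 15.6-fold higher in mutants when w1118 is set at 3 counts per sample. Another run on X held the non-coding genes *CR43217*, *CR43216*, *CR43215* and *CR43214*, with log2 fold changes from 0.61 to 1.23, which lie among similar neighbouring copies. The remaining runs held *Ctr9*, *sturkopf* and *Herc4* on 3L, *Cyp9h1*, *Or49b* and *antr* on 2R, both lower in mutants, and *Tdc1*, *lncRNA:CR44164* and *CG15909*, and *Pkc53E*, *CG43788* and *CG43789* on 2R, both higher. *Ctr9*, a subunit of the Paf1 transcription complex, and *Herc4*, a predicted ubiquitin ligase, had log2 fold changes of -0.89 and -1.01 (SE 0.05 each) and were called in the random-block fit. *Ctr9* and *sturkopf* overlap each other.

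**Figure D4:**
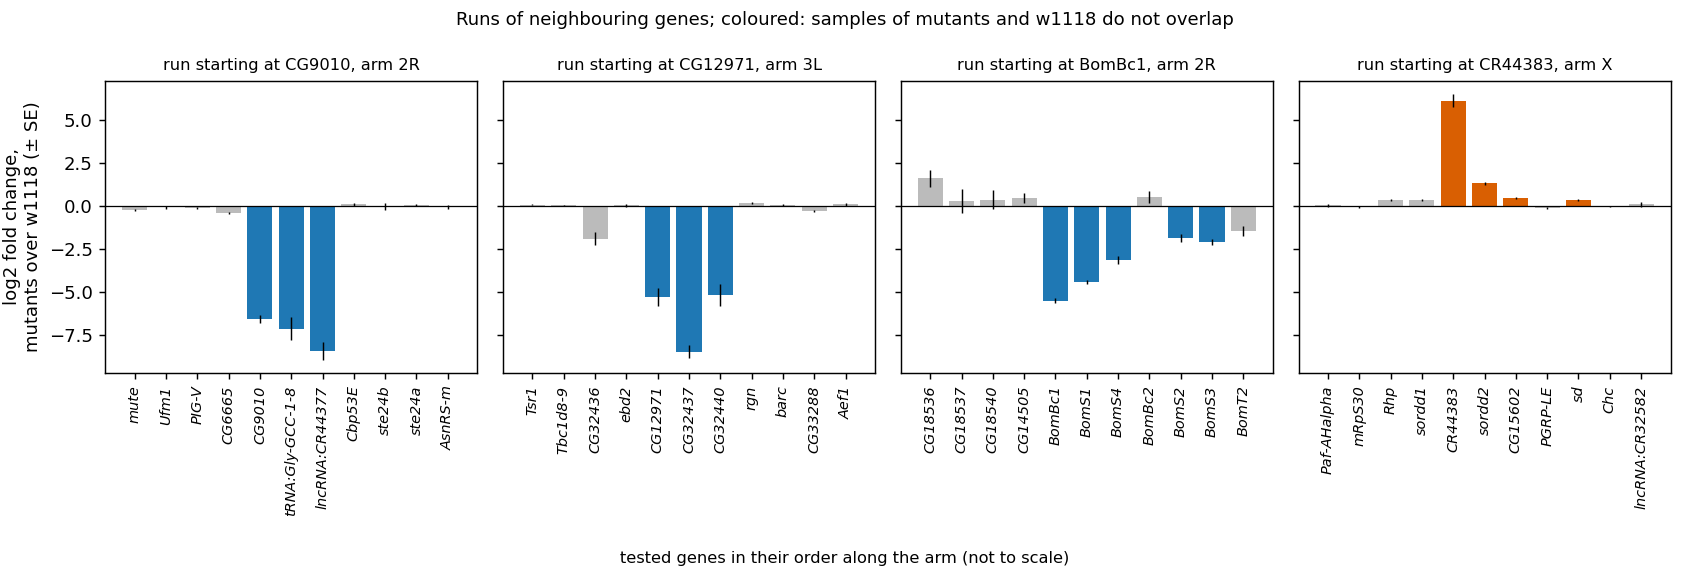
Log2 fold change of mutants over w1118 with its standard error (vertical axis) for consecutive tested genes around 4 runs, in their order along the chromosome arm (horizontal axis, not to scale); coloured bars are genes whose mutant and w1118 samples do not overlap. Within the run at *CG9010* the fitted values lie between -6.54 and -8.39, 2 of them resting on 0 counts in all mutant samples, and the tested genes next to it stand at -0.40 and 0.11.

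Within 500 kb of *w*, 4 of 59 tested genes were non-overlapping (6.78%), and within 500 kb of *Or47b* 10 of 99 were (10.1%). The shares were 7 of 46 near *Or67d* (15.2%) and 13 of 98 near *fru* (13.3%), beside 8.69% of all tested genes. Within 100 kb they were 1 of 21 near *w* (4.76%), 5 of 50 near *Or47b*, 0 of 8 near *Or67d* and 4 of 18 near *fru* (22.2%). In the wider window near *fru* 12 of the 13 were lower, among them *CG7126*, with 0.165 to 1.25 RPKM in mutants and 9.92 to 14.7 RPKM in w1118, and *Polr1E*, a subunit gene of RNA polymerase I, with 9.41 to 13.1 RPKM in mutants and 22.02 to 24.3 RPKM in w1118. qin, a Tudor-domain gene of the piRNA pathway, had 1.09 to 2.7 RPKM in mutants and 4.67 to 8.05 RPKM in w1118 (log2 fold change -1.93, SE 0.14) and overlaps *CG31224*, which was also lower. Near *Or47b*, *Cyp12d1-p* and *Cyp12d1-d*, near-identical copies of a P450 gene, had log2 fold changes of -3.28 and -2.64, and *Drip*, an aquaporin gene, had 26.8 to 30.9 RPKM in *Or47b1*, 135 to 140 in *Or67dGAL4* and 146 and 164 in *fruLexA/fru4-40*, against 171 to 190 RPKM in w1118. *Tret1-1*, a trehalose transporter gene near *Or47b*, had 48.7 to 57.5 RPKM in mutants and 28.6 to 41.3 RPKM in w1118 and was called in the random-block fit. Near *Or67d*, *CG32052* had a log2 fold change of -1.92 (SE 0.19) and *CG32066* one of 0.69 (SE 0.07), the second also called in the random-block fit. Near *w*, the tetraspanin gene *Tsp3A* had 3.8 to 5.46 RPKM in mutants and 7.26 to 7.84 RPKM in w1118. In the same window, *Pdfr*, the receptor of the neuropeptide PDF, had 5.15 to 8.15 RPKM in mutants and 2.47 to 3.44 RPKM in w1118. Both were called in the random-block fit.

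Differences among the 3 mutant groups were read from the edgeR F-test at an adjusted p of 0.01. It called 238 of the 900 non-overlapping genes (26.4%), against 2644 of all tested genes (25.5%). The selection used the same mutant values, so these shares are a description. Relative to the mean of w1118, the median distance of the non-overlapping genes was 0.611 for *Or47b1*, 0.654 for *Or67dGAL4* and 0.621 for *fruLexA/fru4-40* on the log2 CPM scale. *Drip*, *ppk25*, *MtnB*, *w*, *Cyp6a20* and *ppk19* differed among genotypes with adjusted p from 2.0e-10 to 1.3e-07, while *5-HT2A*, *GluRIIA*, *Or7a*, *CR44383* and *CG9010* were not called (edgeR adjusted p from 0.058 to 0.47). *lncRNA:dntRL* had 2.35 to 3.12 RPKM in *Or47b1*, 23.8 to 29.4 in *Or67dGAL4* and 1.73 and 1.83 in *fruLexA/fru4-40*, against at most 0.267 RPKM in w1118.

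Housing separated few genes in the w1118 stock. The edgeR test of w1118 SH against w1118 GH called 7 genes (0.0676%), and 3 of them, *MtnB*, *Dtwd2* and *Jhbp7*, were among the 492 lower non-overlapping genes. All 3 were higher in w1118 SH than in w1118 GH, with log2 differences of 1.36, 0.77 and 1.73, and the mutant samples lay below both groups. *MtnB*, a metallothionein that binds heavy metals, had 33.6, 32.3 and 37.1 RPKM in *Or47b1*, 3.17, 3.55 and 2.82 in *Or67dGAL4* and 11.3 and 9.55 in *fruLexA/fru4-40*, against 105 ± 16.5 RPKM (SD, n = 3) in w1118 SH and 41.2 ± 2.65 RPKM (SD, n = 3) in w1118 GH. The group-housed mutants were therefore farther from the isolated w1118 males than from the group-housed ones for these 3 genes. The number of housing calls was 1 without w1118 GH replicate 1 and 68 without w1118 SH replicate 1. It also depended on the fit, with 27 calls with replicate number as a block and 171 with DESeq2.

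The sample outside the comparison, *fruLexA/fru4-40* replicate 1, which carries a quality warning, was read against the 6 w1118 samples. It lay beyond all of them on the same side as the 8 mutant samples for 767 of the 900 genes (85.2%) and on the other side for 59. This sample lay outside the w1118 range for 76.9% of all tested genes, above it for 37.7% and below it for 39.2%, so it stands apart broadly. It had 0.186 RPKM of *5-HT2A*, 0.964 RPKM of *DIP-alpha*, 253.7 RPKM of *CG7900*, 2.85 RPKM of *GluRIIA* and 9.48 RPKM of *BomS1*, all on the same side of w1118 as the mutants. *lush*, at 874 RPKM, fell within the w1118 range, and *Obp83a*, at 3505 RPKM, fell below it, so those 2 increases did not extend to this sample. With all 15 samples in the fit, the edgeR test called 1859 genes, against 2799 with 14 samples, and 781 genes were non-overlapping, 723 of them in common with the 900.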

How the data were processed

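Antennae of 7-day-old male flies were profiled by RNA-seq, with 180 antennae pooled per sample. The authors trimmed reads with FASTP, mapped them with MapSplice2 on dm6, discarded duplicate reads, and deposited raw counts per gene from featureCounts for 17490 genes, without normalization. Libraries were not stranded, so overlapping genes share reads. Counts were summed over genes to give the depth (8570425 to 14908299 per sample), which limits precision for genes near 3 counts (0.201 to 0.35 CPM). This floor covers counting error only.

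Of 15 samples, 14 entered the comparison, and *fruLexA/fru4-40* replicate 1, deposited in a table of its own with a quality warning, was set beside it. Genes were filtered with filterByExpr and scaled by TMM. Tests used edgeR 4.0.16 (quasi-likelihood, 5 groups, Benjamini-Hochberg adjusted p of 0.01). Overlap was read from log2 CPM with a prior count of 2, with no test attached to it. RPKM used summed exon lengths. The random-block fit used limma 3.58.1 with voom on the 2 sides. The test was also run on simulated counts with a single common spread and no variation between stocks. That run therefore does not cover differences between stocks. DESeq2 1.42.0, other scalings and filters, omitted samples and groups, and a replicate block were the alternatives. Samples of a group are separate pools, not stated to come from separate cultures, and p-values measure only the spread between these samples.

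The genes named were drawn from the 12 largest and 12 smallest fitted changes among non-overlapping genes, the 5 most abundant in each direction, targeted genes, non-overlapping list members, genes in runs or within 500 kb of the targeted genes and *w*, and genes at the floor on 1 side. Not every such gene was described. Of the largest and smallest changes, *CG40470*, *lncRNA:CR45471*, *CG10887* and *CG4998* were left out. *Dtwd2*, *Jhbp7*, *Lsp2*, *Or65a*, *Or65b*, *Or65c*, *Or88a*, *Dro*, *TotC*, *TotX*, *Drsl5*, *Ir76b*, *BomS6*, *BomBc3*, genes at the edge of the selection and neighbours of runs fall outside this rule and were chosen after their values were seen. Members and lists were chosen with earlier results of these data known. Positions and names followed the file and an Ensembl BDGP6 annotation. Sequences were not used here.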

Additional observations from a re-analysis of the deposited data

Results flagged for a closer look

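Several genes whose 8 mutant samples all lay on one side of w1118 differed among the 3 mutant genotypes by the edgeR F-test. For *w* the adjusted p was 1.9e-08, with 43.9 to 54.3 RPKM in *Or47b1*, 179 to 235 RPKM in *Or67dGAL4* and 5.59 and 7.4 RPKM in *fruLexA/fru4-40*. Transcripts of *w* were also present in the sample outside the comparison, *fruLexA/fru4-40* replicate 1, at 3.6 RPKM, above every w1118 sample. The targeted receptors *Or47b* (adjusted p = 1.5e-11) and *Or67d* (adjusted p = 1.7e-08) differed as each was lost in its own mutant.

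The aquaporin gene *Drip* differed among genotypes (adjusted p = 2e-10), with *Or47b1* farthest from w1118. It lies within 500 kb of *Or47b*. *Or67dGAL4* stood apart for *ppk25* (adjusted p = 9e-09), *MtnB* (adjusted p = 1.7e-08), *lncRNA:dntRL* (adjusted p = 3.4e-07) and *Obp83g* (adjusted p = 1.6e-05), with the level farthest from w1118 for each. *Or47b1* stood closest to w1118 for *Cyp6a20* (adjusted p = 5.3e-08) and *CG7900* (adjusted p = 6.7e-05). It stood farthest from w1118 for *ppk19* (adjusted p = 1.3e-07), *GstE1* (adjusted p = 4.8e-05) and *Cyp9b2* (adjusted p = 2.7e-07), a P450 gene with 390 to 426 RPKM in *Or47b1*, 175 to 236 RPKM in *Or67dGAL4* and 118 RPKM in both *fruLexA/fru4-40* samples, against 77.3 to 90.7 RPKM in w1118. The *fruLexA/fru4-40* samples stood farthest from w1118 for *Or19b* (adjusted p = 1e-06) and *Obp56d* (adjusted p = 0.00017), and closest to it for *Cyp6a2* (adjusted p = 0.0015), *BomBc1* (adjusted p = 0.003) and *BomS1* (adjusted p = 0.0033). Genotypes of *DIP-alpha* differed by less, at means of 0.826 RPKM in *Or47b1*, 0.543 RPKM in *Or67dGAL4* and 0.557 RPKM in *fruLexA/fru4-40* (adjusted p = 0.0055), far below w1118 in each. Genotype and stock cannot be told apart in any of these.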

How the results depend on the processing

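The count of calls between mutants and w1118 (2799, of which 1356 higher and 1443 lower) changed with the fit, the samples and the threshold. It was 191 in limma with the group as a random block and 2 sides (79 higher, 112 lower) and 1071 with only the 2 sides in the fit (541 higher, 530 lower). The count was 1609 with w1118 GH alone as the reference (730 higher, 879 lower), 2209 with w1118 SH alone (1022 higher, 1187 lower) and 1859 with all 15 samples (779 higher). It was 4330 at an adjusted p of 0.05 (2120 higher, 2210 lower) and 675 with a log2 fold change of at least 1 (430 higher, 245 lower). Leaving out each sample in turn gave 2089 to 3079 (1023 to 1510 higher, 1066 to 1569 lower), and DESeq2 gave 3084. Without a filter on low counts 38.3% of 2645 calls were higher, against 48.4% with it.

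The 900 non-overlapping genes (408 higher, 492 lower) became 936 to 1088 with each sample left out (422 to 512 higher, 487 to 576 lower). Against w1118 SH alone there were 1808 (881 higher, 927 lower), and against w1118 GH alone, which shares the mutants' housing, 1339 (610 higher, 729 lower). Both references leave the same number of samples to clear. Without *Or47b1* there were 1829 (813 higher, 1016 lower), without *Or67dGAL4* 1484 (748 higher), and without *fruLexA/fru4-40* 751 were lower. All of these counts had fewer samples to clear than the main one. A gap of at least 0.5 left 167 (84 higher, 83 lower). With total counts as the only scaling, 833 of 952 genes (344 higher, 608 lower) were shared with the 900, and edgeR called 1147 higher and 1758 lower. With all 15 samples, the count called in all 6 contrasts was 163 and that of differences among mutants 1348, and the fold change of *fru*, not called in either fit, turned to 0.12 (adjusted p = 0.69), against -0.08. The housing contrast (7 calls) gave 1 with all 15 samples, 171 with DESeq2 and 1 to 68 with each sample left out.

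Same-numbered samples deviated together little on average (mean r 0.041 over 26 pairs, -0.35 to 0.358, 11 over 0.1). Over 52 other pairs the mean r was -0.020. Deviations were taken from means of few samples, so whether the replicate numbers pair the groups was not settled. With replicate number as a block, 2724 genes were called between mutants and w1118 and 27 between the housings. Over 4498 alternatives for 163 named genes, 4255 kept direction and side of the threshold and 242 lost the call, 109 of these with the random block. *Vha68-2* and *Or1a* lost it without several single samples. The cause of these shifts was not tested.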
